A study of Drosophila melanogaster with 6 samples.

Results

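The genes described here encode enzymes of the families that add acetyl groups to histones or take them off. They are the acetyltransferases nej, Gcn5, Tip60, chm and enok and the deacetylases HDAC1, HDAC4, HDAC6 and Sirt1. They were chosen by name, as the rows of the deposited table whose gene identifier carries 1 of 10 current FlyBase symbols, and 9 of the 17483 genes in the table were taken. HDAC3, the tenth, was not analysed here. The table lists HDAC1 under its older symbol Rpd3 and Sirt1 under Sir2.

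The RNA came from dissected brains of 15-day-old w1118 flies, a Drosophila melanogaster strain with white eyes that serves as wild type. The normal food group (3 libraries) was reared without any addition, and the spermidine food group (3 libraries) on that food plus the polyamine spermidine. Dose and sex are not in the labels, which also do not say that replicates came from separate cultures, so p-values measure only how far these libraries spread, which can be technical variation alone. Values are FPKM, fragments scaled to transcript length and library size. Because they are per length, levels of genes can be set side by side, with a limit. For vnc, Sirt4 and asRNA:CR44998, all described below, the FPKM was high beside the mean normalized count that the authors deposited.

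Acetylation of lysines in histone tails loosens the contact of nucleosomes with DNA and is read by bromodomain proteins, while deacetylation reverses it. In neurons these enzymes take part in activity-dependent transcription and memory. Spermidine is known from yeast to inhibit histone acetyltransferase activity and from mammalian cells to inhibit EP300, the counterpart of nej. The libraries measure messenger RNA, not the activity of an enzyme or the acetylation of a histone.

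Markers of neurons and glia were all detected and none of them passed the test between foods in limma. In the authors' deposited table, with p-values adjusted over all tested genes, elav (fold change -1.2), nSyb (-1.17) and Syt1 (-1.12) were called lower. That rule called neither para (-1.13) nor brp (-1.05) nor any glial marker, and it calls 8.7% of all tested genes lower. By FPKM, elav (log2 difference 0.05) and nSyb (0.002) were not lower on spermidine food. Syt1 (-0.15), para (-0.10) and brp (-0.04) had negative differences there too. The summed level of 5 neuronal markers was 1481 to 1563 FPKM on normal food and 1459 to 1470 FPKM on spermidine food, ranges that do not overlap. Taken singly, only Syt1 had groups that did not overlap, as had 28% of all tested genes. It had 402.5, 416.0 and 400.6 FPKM on normal food and 368.4, 367.9 and 361.7 FPKM on spermidine food. The groups of elav, nSyb, para and brp overlapped. The summed level of 5 glial markers was 735 to 841 and 835 to 852 FPKM. Of 6 fat body markers 4 were higher on spermidine food: the yolk protein genes Yp1, Yp2 and Yp3, and fit. The 6 summed to 1909 to 2510 FPKM on normal food and 9628 to 10639 FPKM on spermidine food. The other markers, apolpp and Lsp2, did not pass (limma, adjusted p = 0.093 and 0.052). The sex of the flies is not in the labels, and whether it differed between the groups was not tested. Of 3 haemocyte markers 1 was higher, with sums of 13.3 to 20.8 and 22.5 to 23.1 FPKM. The 4 photoreceptor markers summed to 844 FPKM in normal food replicate 1 and to between 3837 and 7648 FPKM in the other 5 libraries, and 3 muscle markers were highest in the same library (29.1 FPKM, against at most 17.6 FPKM elsewhere). None of the listed markers was at 0. The part of these marker differences in the results below was not tested. In bulk brain, fewer cells of a type and less RNA per cell cannot be told apart.

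None of the 9 genes passed the test between foods. As deposited, the difference of 7 genes was positive and that of 2 negative, but 4 were positive under median-ratio scaling and 3 under quantile normalization, so the signs of Sirt1, Gcn5, nej and chm depend on the scaling. These scalings moved all genes: of the 10366 tested, 5974 were positive as deposited, 5252 under median-ratio scaling and 4180 under quantile normalization, with a median of 0.02, 0.002 and -0.03. In limma on log2(FPKM + 1), 0 of 9 genes had a Benjamini-Hochberg adjusted p under 0.05, against 4.74% of all 10366 genes tested (491 genes, of which 333 or 3.21% were higher and 158 or 1.52% lower, or 321 higher and 309 lower under quantile normalization). At an unadjusted p under 0.05 there was 1 gene, enok, against 21.1% of all tested genes. The authors' deposited table, with its p-values adjusted over these 10366 genes, gave 1 call among the 9, HDAC4 (lower), and called 16.9% of all tested genes. The median log2 difference was 0.02 over the 9 genes and 0.02 over all tested genes, and the median size of the difference regardless of sign was 0.04 against 0.08. The median level was 27.0 FPKM for the 9 genes and 15.5 FPKM for all tested genes. The 95% intervals of the 9 genes together span a fold of 0.851 to 1.21 on the log2(FPKM + 1) scale, spermidine over normal food.

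**Figure D1:**
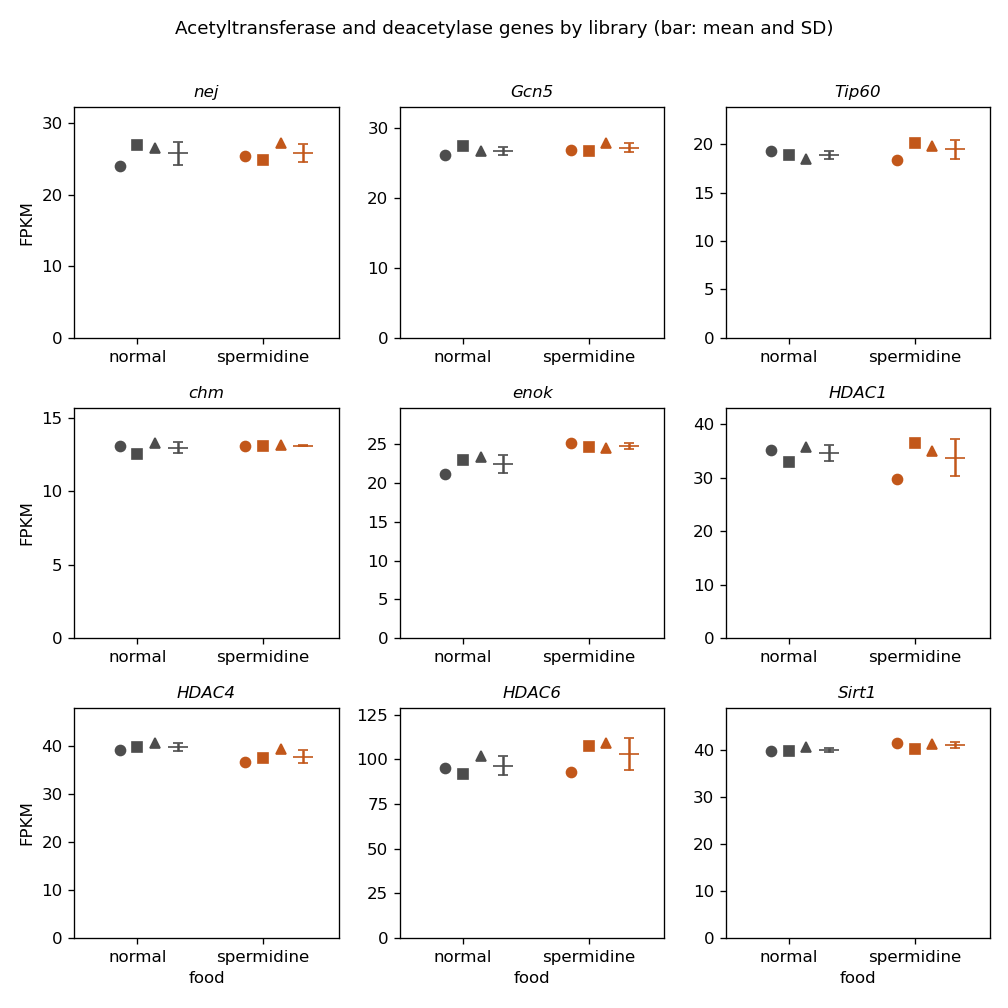
FPKM of the 9 genes in each library (y axis from 0, 1 panel per gene) on normal food (grey) and spermidine food (orange). Circle, square and triangle are replicates 1, 2 and 3, and the bar beside them is the mean and SD of the 3 libraries. Only the panel of enok shows groups that do not overlap.

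Among the acetyltransferases, nej encodes the fly counterpart of the coactivators CBP and EP300, which acetylate histone H3 at enhancers. The gene (FBgn0261617) lies on X from 9665442 to 9687066, on the minus strand. These coordinates, like the others given here, are those of the deposited table, and for all 9 genes they equal those of the current Ensembl annotation of BDGP6. The level of nej was 24.0, 26.9 and 26.4 FPKM in normal food replicates 1, 2 and 3 and 25.5, 24.8 and 27.3 FPKM in spermidine food replicates 1, 2 and 3. The groups overlapped throughout, and the lowest value belonged to a normal food library. The log2 difference was 0.003 ± 0.06 (SE; 95% interval -0.14 to 0.15; limma, adjusted p = 0.981). Of its exonic bases, 486 and 422 are shared with a pair of annotated TART transposable elements on the same strand, so part of its reads could be split between copies.

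Gcn5 is the catalytic subunit of the SAGA and ATAC coactivator complexes, which acetylate histones H3 and H4. The gene (FBgn0020388) lies on 3L from 12521129 to 12524014, on the minus strand. It had 26.2, 27.4 and 26.7 FPKM on normal food and 26.9, 26.7 and 28.0 FPKM on spermidine food. All 6 libraries lay between 26.2 and 28.0 FPKM and the groups overlapped. Gcn5 thus had a log2 difference of 0.02 ± 0.04 (SE; 95% interval -0.07 to 0.11; limma, adjusted p = 0.786).

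Tip60, chm and enok belong to the MYST family of acetyltransferases. Tip60 is the enzyme of a large complex that acetylates histone H4 and the H2A variant and is involved in DNA repair and in neuronal gene control. The gene (FBgn0026080, X, 4114800 to 4117487) had 19.3, 18.9 and 18.42 FPKM on normal food and 18.35, 20.2 and 19.9 FPKM on spermidine food. The lowest and the highest library were both on spermidine food. Its log2 difference was 0.04 ± 0.05 (SE; 95% interval -0.08 to 0.16; limma, adjusted p = 0.681).

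The gene chm (chameau, FBgn0028387, 2L, 7412417 to 7422736), known from fly studies of Polycomb silencing and JNK signalling, was the lowest of the 9. It had 13.1, 12.5 and 13.3 FPKM on normal food and 13.06, 13.09 and 13.12 FPKM on spermidine food. The 3 spermidine libraries fell inside the range of the normal food libraries. Its log2 difference was 0.01 ± 0.04 (SE; limma, adjusted p = 0.891).

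The gene enok (enoki mushroom) acetylates histone H3 and is required for neuroblast proliferation in the mushroom body, the memory centre of the fly brain. It lies on 2R from 24099210 to 24107032 (FBgn0034975). Its level was 21.1, 23.0 and 23.3 FPKM on normal food and 25.2, 24.6 and 24.6 FPKM on spermidine food. Every spermidine food library was above every normal food library, which held for 1 of the 9 genes in either direction and for 28% of all tested genes. The log2 difference was 0.14 ± 0.05 (SE; 95% interval 0.02 to 0.25) and did not pass over all genes tested (limma, adjusted p = 0.167). The exact two-sided permutation test over libraries gave p = 0.1, the smallest that 3 against 3 libraries can give. In the authors' deposited table the gene has a fold change of 1.09, with a p-value that becomes 0.0642 once adjusted. The difference stayed positive with each library left out, between 0.10 and 0.16.

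Of the deacetylases, HDAC1 (Rpd3) is the class I enzyme of the Sin3, NuRD and CoREST corepressors. The gene (FBgn0015805, 3L, 4626734 to 4629467) had 35.2, 32.9 and 35.8 FPKM on normal food and 29.8, 36.6 and 35.0 FPKM on spermidine food. Spermidine food replicate 1 was the lowest and replicate 2 the highest of all 6, so the groups overlapped. This gene varied most on spermidine food, with a coefficient of variation of 10.4% there against 4.40% on normal food. The log2 difference was -0.04 ± 0.08 (SE; 95% interval -0.23 to 0.16; limma, adjusted p = 0.831), and it was 0.05 without spermidine food replicate 1.

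HDAC4 is a class IIa enzyme that moves between cytoplasm and nucleus with neuronal activity and binds the transcription factor Mef2. The gene (FBgn0041210, X, 13262687 to 13285632) had 39.1, 39.8 and 40.7 FPKM on normal food and 36.6, 37.5 and 39.3 FPKM on spermidine food. The highest spermidine food library reached into the normal food range, and the other spermidine food libraries were below it. The log2 difference was -0.07 ± 0.04 (SE; 95% interval -0.17 to 0.02; limma, adjusted p = 0.345). In the authors' deposited table the fold change is -1.07 with an unadjusted p of 0.00727, which becomes 0.0442 once adjusted. By that rule 8.7% of all tested genes are called lower.

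HDAC6 is a largely cytoplasmic deacetylase, known from mammals to act on tubulin and Hsp90 and, in flies, to help clear aggregated protein. The gene (FBgn0026428, X, 15333310 to 15340360) was the most abundant of the 9, with 95.3, 91.9 and 102 FPKM on normal food and 92.8, 107 and 109 FPKM on spermidine food. Spermidine food replicate 1 lay near the lowest normal food library, while the other 2 spermidine food libraries were the highest of the 6. For HDAC6 the log2 difference was 0.09 ± 0.07 (SE; 95% interval -0.09 to 0.27; limma, adjusted p = 0.529). With 1 library left out it ran from 0.05, without spermidine food replicate 3, to 0.17, without spermidine food replicate 1.

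Sirt1 (Sir2) uses NAD to remove acetyl groups and links deacetylation to the metabolic state of the cell. The gene (FBgn0024291, 2L, 13165564 to 13169551) had 39.78, 39.76 and 40.5 FPKM on normal food and 41.5, 40.3 and 41.2 FPKM on spermidine food. The groups overlapped only through spermidine food replicate 2, which was below the highest normal food library. The spread was small, with coefficients of variation of 1.08% and 1.56%. For Sirt1 the log2 difference was 0.03 ± 0.03 (SE; 95% interval -0.04 to 0.11; limma, adjusted p = 0.578).

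**Figure D2:**
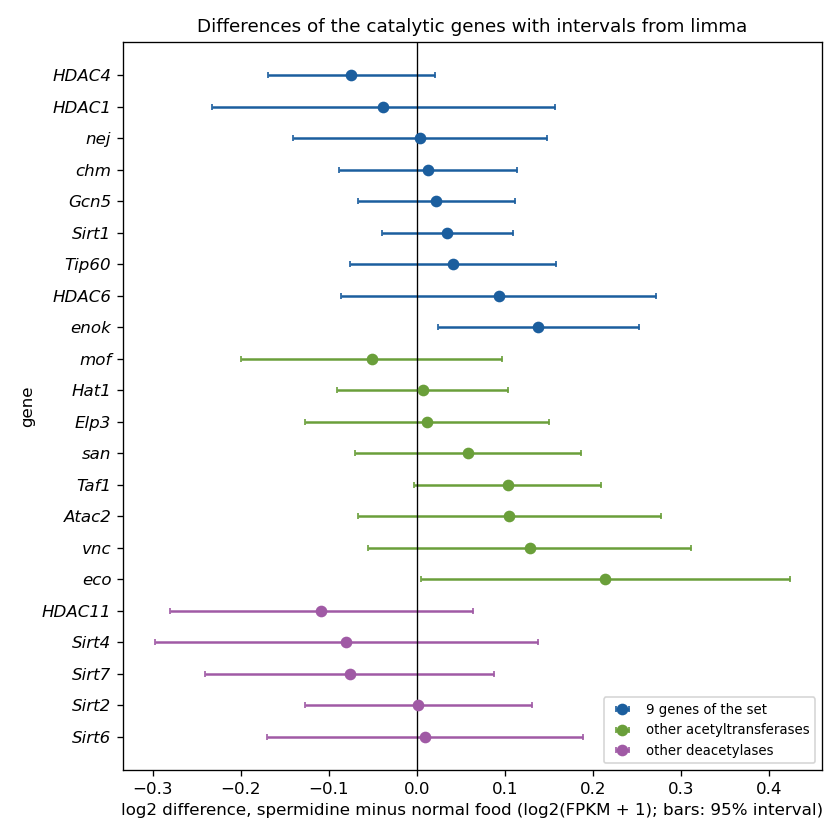
Log2 difference between foods (x axis, spermidine minus normal food, on log2(FPKM + 1)) with its 95% interval from limma, for the 9 genes (blue), 8 further acetyltransferase genes (green) and 5 further deacetylase genes (purple), 1 gene per line. Among the 9, the interval of enok (0.02 to 0.25) is the one that does not reach 0, and none of the 22 genes passed the adjusted threshold.

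Ordered by their mean over the 6 libraries, the levels ran from HDAC6 (99.7 FPKM) through Sirt1 (40.5), HDAC4 (38.8), HDAC1 (34.2), Gcn5 (27.0), nej (25.8), enok (23.6) and Tip60 (19.2) to chm (13.0 FPKM). Within this set all 4 deacetylases thus stood above all 5 acetyltransferases. The further genes described below did not keep this order. Their deacetylases ran from 5.57 FPKM (Sirt6) to 40.8 FPKM (Sirt2) and their acetyltransferases from 3.02 FPKM (eco) to 40.7 FPKM (san). The ranges over the 6 libraries overlapped between Sirt1 and HDAC4, HDAC4 and HDAC1, Gcn5 and nej, and nej and enok, and were apart between the other neighbours in this order. HDAC6 stood at percentile 91.5 and chm at percentile 45.1 of the mean FPKM of the genes tested.

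The summed level of the 4 deacetylases was 209, 204 and 219 FPKM on normal food and 201, 222 and 225 FPKM on spermidine food. That of the 5 acetyltransferases was 104, 109 and 108 FPKM on normal food and 109, 109 and 113 FPKM on spermidine food. The ratio of the first to the second was 2.02, 1.88 and 2.02 in the libraries without spermidine and 1.84, 2.03 and 1.99 in those with it, so the foods overlapped. Without HDAC6 the ratio was 1.1, 1.03 and 1.08 without spermidine and 0.99, 1.05 and 1.02 with it.

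The median coefficient of variation of the 9 genes between libraries of 1 food was 3.04% on normal food and 3.70% on spermidine food, against 6.21% and 5.51% over all tested genes. The 9 genes were also more abundant (median of 27.0 against 15.5 FPKM), and the part of level in this was not tested. Spermidine food replicate 1 was the lowest of the 6 libraries for HDAC1, HDAC4 and Tip60, normal food replicate 1 for nej, Gcn5 and enok, and normal food replicate 2 for chm, HDAC6 and Sirt1. The authors' deposited mean normalized counts behind these genes ran from 1535 for Tip60 on normal food to 20979 for nej on normal food. Such counts are not per length, and nej has 15932 exonic bases in the current annotation and Tip60 has 2413.

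On X lie 4 of the 9 genes (nej, Tip60, HDAC4 and HDAC6), or 44.4% against 16.7% of tested genes, and the median log2 difference was 0.02 for those 4, 0.01 for all tested X genes and 0.02 for tested genes elsewhere. Exons of 5 of the 9 overlap exons of a gene on the opposite strand in the current annotation. Whether reads were counted by strand was not given in the sources used here, so reads of such partners may be mixed. The largest overlap is that of HDAC6 with the antisense RNA asRNA:CR44998, over 1106 bases or 21.1% of the exonic bases of HDAC6. That RNA had 27.7, 24.6 and 29.5 FPKM on normal food and 24.4, 27.0 and 27.4 FPKM on spermidine food. It was lowest in the libraries in which HDAC6 was low, normal food replicate 2 and spermidine food replicate 1. In the authors' deposited table its mean normalized count on normal food is 19, against 17176 for HDAC6. Gcn5, with a mean of 26.8 FPKM on normal food, has a count of 3698 there, so the count of the antisense RNA is low for its FPKM. Sirt1 shares 509 bases with the chaperone gene DnaJ-H, whose level was 105 ± 2.15 FPKM on normal food (SD, n = 3). Tip60 shares 376 bases with tyf, whose product supports translation of the clock gene per, with 30.5 ± 0.88 FPKM on normal food (SD, n = 3).

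The other catalytic genes did not pass either. Of 9 further acetyltransferase genes 8 were tested, since CG1894 had under 0.12 FPKM in every library. None of the 8 was called by limma or by the authors' p-values, and 1 had an unadjusted p under 0.05, against 21.1% of all tested genes. That gene was eco, the acetyltransferase of cohesin, which averaged 2.73 ± 0.30 FPKM without and 3.32 ± 0.26 FPKM with spermidine (SD, n = 3 each), at an adjusted p of 0.228 in limma. The remaining ones were Taf1 of the general factor TFIID, the N-terminal acetyltransferases vnc and san, Atac2 of the ATAC complex, the dosage compensation enzyme mof, Elp3 of Elongator and Hat1. Their log2 differences ran from -0.05 (mof) to 0.13 (vnc), with adjusted p from 0.251 (Taf1) to 0.946 (Hat1) in limma. Groups did not overlap for 1 of the 8 (12.5%, against 28% of all tested genes), Taf1, at 27.8 ± 1.37 FPKM without and 30.0 ± 0.07 FPKM with spermidine (SD, n = 3 each). The authors' deposited mean normalized count of vnc is 0 on both foods, so their p-value gives nothing for that gene. The median log2 difference of the 8 was 0.08, and 0.06 and 0.03 under median-ratio scaling and quantile normalization. Levels of the 8 genes ranged from 3.02 FPKM (eco) to 40.7 FPKM (san). Of 5 further deacetylase genes (HDAC11, Sirt2, Sirt4, Sirt6 and Sirt7) none was called by limma or by the authors' p-values and none had an unadjusted p under 0.05. Their log2 differences ran from -0.11 for HDAC11 to 0.01 for Sirt6, with 2 positive as deposited and none positive under median-ratio scaling or quantile normalization. Sirt2, the most abundant of them, averaged 40.8 ± 2.64 FPKM without and 40.8 ± 1.13 FPKM with spermidine (SD, n = 3 each).

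Among 89 tested genes for partners, readers and supply of these enzymes, 1 passed the test (1.12%, against 4.74% of all tested genes), and its product is shared by the complexes of Gcn5 and Tip60. Nipped-A (FBgn0053554, 2R, 5177965 to 5251022, minus strand) encodes the very large scaffold protein, called Tra1 in yeast and TRRAP in mammals, that binds activators and brings both complexes to promoters. Its level was 25.5, 25.7 and 23.5 FPKM on normal food and 16.5, 17.8 and 16.7 FPKM on spermidine food. Every spermidine food library was below every normal food library. It fell by 0.52 on the log2 scale, with an SE of 0.05 (95% interval -0.65 to -0.40; limma, adjusted p = 0.0074; exact permutation p = 0.1). In the authors' deposited table the fold change is -1.46, from a mean normalized count of 15083 to 10204. Without spermidine food replicate 3 the log2 difference was -0.51 and the call was lost (limma, adjusted p = 0.0538), in a fit that called 55 genes in all, 6 of them lower. In limma under the other alternatives the adjusted p ran from 0.00743 to 0.048.

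Nipped-A lies near the centromere of 2R, and so do other genes that fell. Of 30 other tested genes that start within 500000 bases of its annotated start, a window chosen after the values were seen, 5 were called lower and none higher (16.7% lower, against 1.68% of 2089 tested genes on the rest of 2R). The 5 were Nipped-B, which loads cohesin onto chromatin (log2 difference -0.74), the stress transcription factor gene Atf6 (-0.96), CG3107 (-0.57), conu (-0.30), and sxc, the O-GlcNAc transferase of the Polycomb group (-0.30). All 5 had an adjusted p between 0.0115 and 0.0308 in limma. Whether position has a part in the fall of Nipped-A was not tested.

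**Figure D3:**
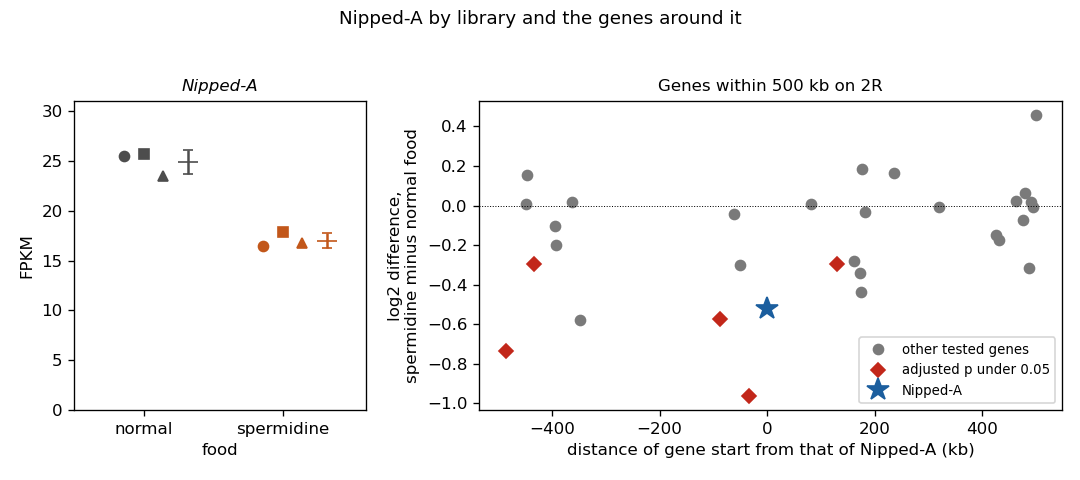
Left, FPKM of Nipped-A in each library (y axis from 0) on normal food (grey) and spermidine food (orange), with the mean and SD beside the points. Right, log2 difference between foods (y axis) of tested genes against the distance of their start from that of Nipped-A (x axis, in kilobases). The 5 red diamonds are the genes called lower, and the star is Nipped-A at -0.52.

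The rest of the SAGA and ATAC list showed no other call. Of 24 listed subunits 23 were tested (Ataxin-7 was not analysed here), 1 fell (Nipped-A), none rose and 22 did not pass, with a median log2 difference of 0.02 (-0.002 under median-ratio scaling and -0.04 under quantile normalization). The next smallest p-values belonged to Taf10b, a histone-fold subunit, at 54.3 ± 1.12 FPKM without and 60.2 ± 3.49 FPKM with spermidine (SD, n = 3 each), and Ada3, a partner of Gcn5 in both complexes, at 12.6 ± 0.28 and 11.6 ± 0.25 FPKM. Their adjusted p in limma was 0.168 and 0.246, and both are among the 4 of 23 genes whose groups did not overlap (17.4%, against 28% of all tested genes).

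All 13 listed subunits of the Tip60 complex beside Nipped-A, which is counted with SAGA, were tested and none was called by limma or by the authors' p-values, with 1 unadjusted p under 0.05, that of dom (21.1% of all tested genes had one). This gene, which encodes an ATPase of the same complex that exchanges histone variants, stood at 27.7, 31.6 and 32.3 FPKM on normal food and at 34.2 FPKM in all 3 spermidine food libraries. The groups did not overlap, but the difference did not pass (0.16 ± 0.06, SE; limma, adjusted p = 0.196). The helicase gene pont averaged 12.6 ± 0.29 FPKM without and 13.7 ± 0.70 FPKM with spermidine (SD, n = 3 each; adjusted p of 0.301 in limma). The median over the 13 genes was 0.05, and 0.03 and 0.0015 under median-ratio scaling and quantile normalization. Groups did not overlap for 4 of the 13 genes (30.8%), close to the 28% of all tested genes.

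Among 11 partners of MYST enzymes, with the MSL and NSL complexes of mof, limma called none, and msl-2 alone had an unadjusted p under 0.05, as had 21.1% of all tested genes. It encodes the male-specific subunit of dosage compensation, and whether the sex of the flies, which is not in the labels, differed between foods was not tested. Its level was 14.1, 13.5 and 13.4 FPKM on normal food and 11.9, 12.1 and 12.3 FPKM on spermidine food, with no overlap (log2 difference -0.17 ± 0.04, SE; limma, adjusted p = 0.0877). It passed under quantile normalization (limma, adjusted p = 0.0383, in a range of 0.0383 to 0.211 over all alternatives in limma) and by the authors' deposited p-values (0.00128 once adjusted). Ing5, a histone reader whose mammalian counterpart works with those of enok and chm, averaged 20.5 ± 0.70 FPKM without and 19.4 ± 0.17 FPKM with spermidine (SD, n = 3 each), at an adjusted p of 0.381 in limma. The median log2 difference of the 11 genes was 0.02, and 0.0016 and -0.03 under median-ratio scaling and quantile normalization. Groups did not overlap for 3 of the 11 (27.3%), msl-2 and Ing5 among them, close to the 28% of all tested genes.

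The corepressors that carry the deacetylases were also free of calls in limma, with 17 of 19 listed genes tested, 1 unadjusted p under 0.05 (against 21.1% of all tested genes) and a median log2 difference of -0.01 (-0.03 and -0.05 under median-ratio scaling and quantile normalization). Sds3 was not analysed here. Kdm5, a histone demethylase gene also called lid, was left out because its estimate failed in spermidine food replicate 2, where it is listed at 0 beside 40.2 to 43.8 FPKM in the other 5 libraries. CoRest, which joins HDAC1 to a histone demethylase, had 50.9, 46.3 and 50.2 FPKM on normal food and 43.8, 45.3 and 42.9 FPKM on spermidine food. The groups did not overlap, and the log2 difference of -0.16 ± 0.05 (SE) did not pass as deposited (limma, adjusted p = 0.127) but did under quantile normalization (limma, adjusted p = 0.0445, in a range of 0.0445 to 0.305 over all alternatives in limma). That demethylase gene, Su(var)3-3, averaged 8.59 ± 0.10 FPKM without and 8.0 ± 0.24 FPKM with spermidine (SD, n = 3 each), at an adjusted p of 0.329 in limma. Groups did not overlap for 5 of the 17 genes (29.4%), close to the 28% of all tested genes. By the adjusted p-values of the authors' deposited table, 4 of the 17 were lower and none higher, where that rule calls 8.7% of all tested genes lower: CoRest (fold change -1.09), simj of NuRD (-1.1), and the corepressors CtBP (-1.09) and gro (-1.07).

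Bromodomain readers, partners of class IIa deacetylases and genes of acetyl-CoA and NAD supply had no call in limma either. The 8 bromodomain genes had no unadjusted p under 0.05 and a median log2 difference of 0.003 (-0.02 and -0.04 under median-ratio scaling and quantile normalization), and dikar and tou had the smallest p (limma, adjusted p = 0.441 and 0.702). The 8 class IIa partners had none as well, the authors' deposited p-values called no gene of either list, and the median of the partners was 0.03 (0.0075 and -0.0093 under those scalings). Among them 14-3-3epsilon and 14-3-3zeta, whose products hold phosphorylated class IIa enzymes in the cytoplasm, averaged 411 ± 11 and 921 ± 12.9 FPKM on normal food and 437 ± 12.4 and 971 ± 21.1 FPKM on spermidine food (SD, n = 3 each). Neither passed (adjusted p of 0.324 and 0.478 in limma). The groups did not overlap for 3 of the 8 partners, these among them (37.5%, against 28% of all tested genes). In the authors' deposited table both have fold changes below zero, -1.02 and -1.06. Of the 9 supply genes 1 had an unadjusted p under 0.05 (against 21.1% of all tested genes), Nadsyn, which makes NAD. It averaged 12.6 ± 0.42 FPKM without and 11.4 ± 0.41 FPKM with spermidine (SD, n = 3 each), at an adjusted p of 0.18 in limma, and the authors' deposited p-values call it lower (0.0355 once adjusted). ATPCL, the ATP citrate lyase that makes cytosolic acetyl-CoA, averaged 110 ± 6.08 and 118 ± 4.24 FPKM on the same foods, at an adjusted p of 0.368 in limma. The median of the 9 was 0.07, and 0.05 and 0.04 under the other scalings.

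**Figure D4:**
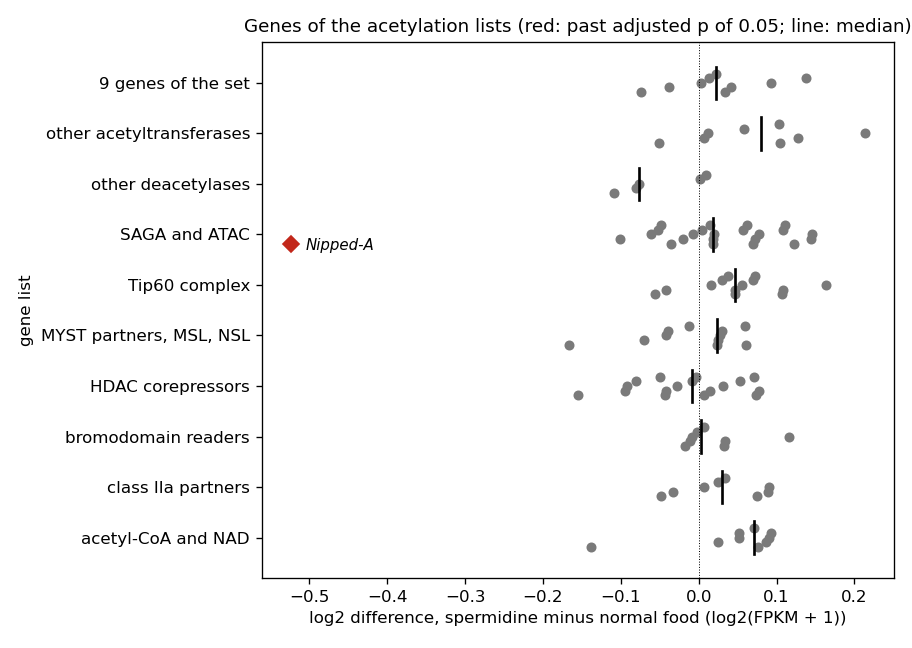
Log2 difference between foods (x axis, on log2(FPKM + 1)) of each tested gene, by gene list (y axis), with the median of each list as a black line. Nipped-A at -0.52 is the gene past the adjusted threshold (red diamond), and the medians of the 10 lists lie between -0.08 and 0.08 as deposited. The medians of the 9 genes, SAGA and ATAC, MYST partners, bromodomain readers and class IIa partners turn negative under quantile normalization, as does that of all tested genes (0.02 to -0.03).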

How the data were processed

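Brains were dissected, RNA was extracted with Trizol and libraries were made with a stranded mRNA kit, per the labels' protocols. The submitters' processing notes name Cufflinks, HTSeq and DESeq without version or role, and an aligner was not given in the sources used here. Per the file headers, the gene models come from Ensembl build 82, and 99.8% of 17141 shared genes lie within 2000 bases of their place in the current Ensembl annotation, from which exons and overlaps were taken. The authors deposited FPKM per library with an estimate status, mean normalized counts per group (a signal without values per library), an unadjusted p-value and a signed fold change (a score whose negative values mean lower on spermidine food). Depth per library is unknown, so no counting intervals are given.

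Genes with a status other than OK in any library (215) were left out, as were genes that reached an FPKM of 0.5 in fewer than 3 of 6 libraries, which left 10366. limma 3.58.1 in R 4.3.3 with an intensity trend was run on log2(FPKM + 1), two-sided, with Benjamini-Hochberg adjustment and a threshold of 0.05. Differences on that scale understate changes of low genes. On simulated data the model called 2% of 1.1-fold changes, 46% of 1.25-fold, 84% of 1.5-fold and 96% of 2-fold changes. There it also called 7 unchanged genes. Named genes are the 9 genes, all further catalytic genes tested and, of each other list, genes past the threshold and the 2 with the smallest p besides. Neighbours of Nipped-A, simj, CtBP, gro, Kdm5 and genes overlapping the 9 were named after their values were seen. The members and lists were chosen with earlier results of these data known. Alternatives covered scaling, filter, pseudocount (0.1 and 0.5), trend, replicate block, the authors' p-values and each library left out.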

Additional observations from a re-analysis of the deposited data

How the results depend on the processing

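The number of genes called in all, 491, was 67 without a filter on low values, 257 with the replicate number as a replicate block, 1752 (850 higher and 902 lower) with the authors' p-values, and between 55 and 322 with 1 library left out, lowest without spermidine food replicate 3. The count was 177 without spermidine food replicate 1, 248 and 270 without normal food replicates 2 and 3, and 313 without normal food replicate 1. Among the 9 genes the count of 0 was the same in each of these, except for 1 (HDAC4, -0.10) with the authors' p-values. Replicate numbers did not pair the libraries (correlations of same-numbered deviations of -0.0513, -0.103 and 0.018), and not every library correlated best with its own number. Of 333 values of 37 named genes under alternatives with all libraries, 304 kept direction and side of the threshold, 6 crossed it (HDAC4 with the authors' p-values, msl-2 and CoRest with those and with quantile normalization, and Nadsyn with the authors' p-values) and 23 changed sign.

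Under median-ratio scaling the log2 differences that changed sign were Gcn5 (-0.00012), nej (-0.019), chm (-0.0082), Elp3 (-0.0095), Hat1 (-0.015), Sirt6 (-0.0099) and Sirt2 (-0.021). Under quantile normalization they were Sirt1 (-0.0073), Gcn5 (-0.027), nej (-0.043), chm (-0.033), Elp3 (-0.042), Hat1 (-0.040), Sirt6 (-0.062), Sirt2 (-0.03) and tou (-0.0044). In the authors' deposited fold changes they were nej (-0.043), chm (-0.014), Hat1 (-0.043), Sirt4 (0.098), Sirt6 (-0.014), 14-3-3epsilon (-0.029) and 14-3-3zeta (-0.084). The deposited mean normalized counts of Sirt4 are only 68.0 on normal food and 75.3 on spermidine food, beside 24.7 and 23.4 FPKM. With 1 library left out the log2 difference ran from -0.096 to 0.047 for HDAC1, from -0.047 to 0.035 for nej, from -0.0098 to 0.030 for chm, from -0.039 to 0.046 for Elp3, from -0.019 to 0.028 for Hat1, from -0.15 to 0.0038 for Sirt4, from -0.055 to 0.063 for Sirt6, from -0.036 to 0.051 for Sirt2 and from -0.0019 to 0.057 for tou. Nipped-A lost its call without spermidine food replicate 3 (-0.51). The cause of these changes was not tested. Depth per library is unknown, since the deposited counts are group means.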
